A study of Mus musculus with 35 samples.

Results

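Western diet was set against chow after 22 weeks in aortas of EKO/hA-I mice, which lack mouse apolipoprotein E and make human apoA-I from a transgene. The comparison took 6 of the 35 libraries of the study, 3 on each diet, by genotype, diet and duration in the library titles and not by any measured value. The mice behind all 6 libraries were C57BL/6. These mice shared both genetic changes, the lost apoE and the added human apoA-I, so the control mice carried them too. They were 8 weeks old when the diets began and 30 weeks old at the end. The control diet was a regular chow (4RF21) and the other a Western diet (WD, TD.88137). The promoter that drives the transgene is not given in the sources used here, and neither is the sex of the mice. Each library was made from total RNA of aorta, dissected between the root and the iliac bifurcation after perfusion, and the labels state that the fat around it was taken off. The other 29 libraries fall into 10 groups of wild type (WT), EKO and EKO/hA-I mice on either diet for 6 or 22 weeks.

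As background, the aortic wall is built from smooth muscle cells, a sheet of endothelium and an outer layer of fibroblasts. ApoE lets the liver take up remnants of lipoproteins; without it cholesterol-rich particles stay in the blood and macrophages of the wall take up lipid. ApoA-I is the main protein of high-density lipoprotein, which accepts cholesterol exported by the cell transporters ABCA1 and ABCG1. The mouse thoracic aorta lies in brown fat and close to muscles of the back. Both tissues hold very abundant transcripts, so small pieces left on a vessel add their RNA to a library. In bulk RNA a change in the number of cells of a type and a change in RNA per cell cannot be told apart, and this holds for every result that follows.

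The targeted gene was looked at first. Apoe stood at 12.03, 9.66 and 6.89 on chow and at 14.4, 11.8 and 21.0 on WD in normalised read counts, against 415.6 to 1276 in the 12 WT libraries of the study. Mouse Apoa1 lay between 0.435 and 1.28 in the 6 libraries, and transcripts of the human gene are not analysed here. Markers of the labelled tissue were abundant in all 6, with smooth muscle actin (Acta2) at 1327 or more and the endothelial adhesion protein Pecam1 at 471.7 or more. Between 14610000 and 24660000 reads stood behind these libraries, as inferred from the smallest step between values. Y-linked transcripts were missing from WD replicate 1 and present in the other 5. Across genes, which are not independent replicates, the chow libraries correlated with each other at 0.975 to 0.989, the WD libraries at 0.947 to 0.975, and libraries of different diets at 0.872 to 0.945. No label says more of the replicates than that they are separate samples. The p-values rest on the spread among replicates within all 12 groups of the study, which may be technical.

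Of 14157 genes tested, 5409 (38.2%) passed at an adjusted p under 0.05 (limma), 2928 higher on WD (20.7%) and 2481 lower (17.5%). The 3 values of one diet lay wholly above or below those of the other in 7311 genes (51.6%), higher on WD in 28.3% and lower in 23.3% of all genes. All differences below are log2 fold changes of value plus 1, WD minus chow, with their SE and n = 3 against 3, and means are given with SD. The median over all genes was 0.05. Gene lists for cell types and pathways were read against these shares. With each of the 6 libraries left out in turn, 3608 to 5007 genes passed, the low counts being 3608 without WD replicate 2 and 3623 without chow replicate 3, against 5007 without WD replicate 3.

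Markers of brown fat and of skeletal muscle did not overlap between the diets. The mean log2 value of the brown adipocyte list was 5.99 to 6.31 on chow and 7.42 to 7.68 on WD, and in the 29 other libraries it ran from 5.77 to 8.21. Of those 29 libraries, 5 reached the lowest WD value and 4 lay at or below the highest chow value. The skeletal muscle list stood at 1.94 to 2.54 on chow and at 5.53 to 7.504 on WD, a level that 2 of the 29 others reached. Contractile smooth muscle genes went the other way, with a list mean of 9.88 to 10.4 on chow and 7.81 to 8.90 on WD. The list means of heart muscle, sympathetic neurons, Schwann cells and red cells overlapped between the diets. Markers of other neighbouring tissue were low throughout, at 1.99 to 2.85 on chow and 1.54 to 1.84 on WD.

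**Figure D1:**
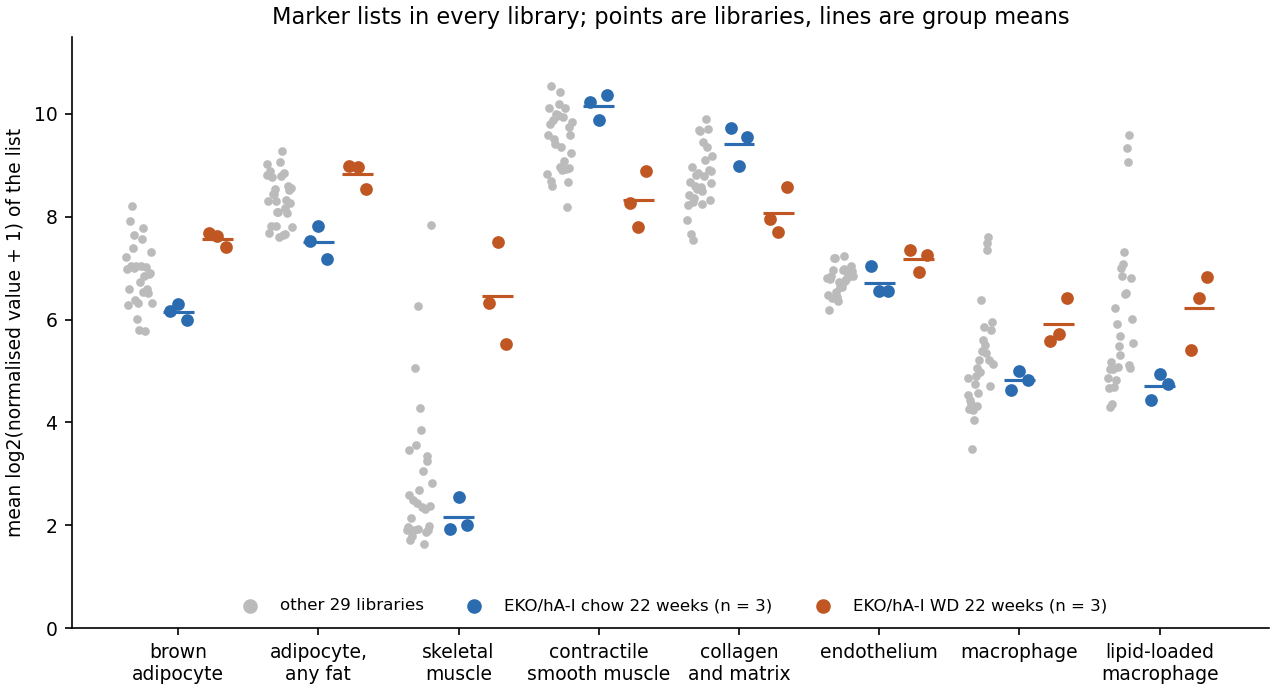
Mean log2(normalised value + 1) of 8 marker lists in every library, with the 3 EKO/hA-I chow and 3 WD libraries at 22 weeks beside the other 29. The diets do not overlap for brown adipocyte, adipocyte, skeletal muscle, smooth muscle, matrix, macrophage or lipid-loaded macrophage genes, while the endothelial list overlaps.

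Each gene was then placed by its relation to fat and muscle in libraries outside the comparison. Within the 10 other groups, the deviations of a gene from its group means were correlated with those of the brown adipocyte and the skeletal muscle list over 29 libraries. These correlations are descriptions, since all points of a gene share the same pieces of tissue and libraries. A Pearson r of at least 0.7 put a gene in the class that follows brown fat (1627 genes) or skeletal muscle (44 genes). In the comparison, 1237 of the 1627 genes that follow brown fat rose (76%), which was 42.2% of all rises. Their median was 0.84, and it came to 0.02 in a fit with the brown adipocyte list mean of each library as a term. The class was chosen by its correlation with that list mean in libraries that are also in the fit. Its median therefore comes near 0 largely by construction. Of the 44 genes that follow skeletal muscle 40 rose, with a median of 2.19. A further class of r at or below -0.7 was formed after the values had been seen: 698 of its 816 genes fell (85.5%), which was 28.1% of all falls. The remaining 11670 genes supplied 1651 rises (14.1% of them) and 1783 falls (15.3%), and their median was 0.01.

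**Figure D2:**
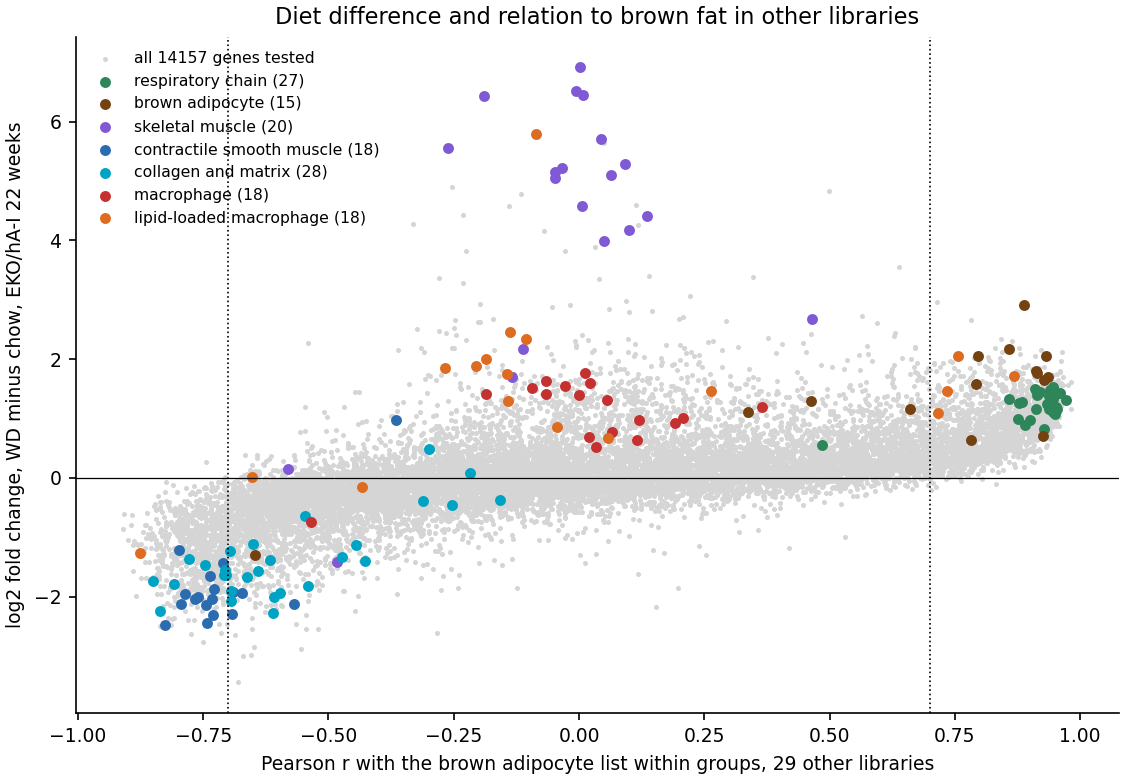
Log2 fold change on WD (y axis) against the correlation of each gene with the brown adipocyte list in the 29 other libraries (x axis), for all 14157 genes in grey and 7 lists in colour; dotted lines mark r of 0.7 and -0.7. Respiratory chain genes sit at the right and above 0, smooth muscle and matrix genes mostly at the left and below 0, and macrophage and skeletal muscle genes near r of 0 and above it.

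Brown fat burns fatty acids in mitochondria to make heat, and genes of that programme rose together. Of 15 measured brown adipocyte genes 10 rose and 1 fell (median 1.65). Ucp1, the uncoupling protein that defines this cell, measured 852.6, 1084 and 908.2 on chow and 4260, 4366 and 3245 on WD. The lowest WD library was well above the highest on chow, and the log2 fold change was 2.06 ± 0.54 (adjusted p = 0.0049, limma). Elovl3, a fatty acid elongase of brown fat, went from 42.1 ± 22.2 to 310.5 ± 110 (2.91 ± 0.73), and Plin5, a coat protein of lipid droplets in oxidative cells, from 39.4 ± 9.28 to 177 ± 11.2 (2.16 ± 0.42). The exception was Prdm16, a transcription factor of brown fat identity, which fell from 131.9 ± 26.5 to 53.5 ± 15.2 (-1.30 ± 0.28, adjusted p = 0.0016, limma). Its correlation with the other brown fat genes was -0.65 in the 29 other libraries.

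Energy metabolism moved with the fat markers. All 27 respiratory chain genes measured rose, from 0.56 for the ATP synthase subunit Atp5j to 1.53 for its partner Atp5b (median 1.28). Of these, 26 follow brown fat in the other libraries, and with the brown fat term the median was 0.09. Uqcrc1, a core protein of complex III, averaged 343.2 ± 60.2 on chow and 960.4 ± 105 on WD (1.49 ± 0.35). Fatty acid oxidation rose in 15 of 16 genes, 15 of which follow brown fat, with a median of 1.63 that came to 0.11 with the term. Cpt1b, the muscle and brown fat form of the enzyme that lets fatty acids into mitochondria, rose by 1.97 ± 0.45, whereas the gene that fell was Cpt1a, the form of liver and most other cells (-0.52), which kept its call in 3 of the 6 fits with a library left out and lost it without chow replicate 1 (-0.42, adjusted p = 0.11), WD replicate 1 (-0.51, adjusted p = 0.061) or WD replicate 2 (-0.48, adjusted p = 0.083, limma). Fabp3, a carrier of fatty acids in oxidative tissue, went from 65.01 ± 10.97 to 416.9 ± 70.6 (2.66 ± 0.47), and Gmpr, an enzyme of purine exchange, from 18.3 ± 5.04 to 146.5 ± 15.4 (2.96 ± 0.72). Both follow brown fat, and their differences with the term were 1.20 and 0.96, neither of which passed (adjusted p = 0.13 and 0.48, limma).

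Genes of fat cells of any kind rose in 10 of 16 cases (median 1.403). Cidec, which fuses lipid droplets, averaged 261.5 ± 145 on chow and 862.2 ± 121 on WD (1.85 ± 0.40). Adipoq, which encodes the fat hormone adiponectin, rose by 1.27 ± 0.40, a call that was lost without chow replicate 3 (0.99, adjusted p = 0.093, limma) and without WD replicate 1 (1.14, adjusted p = 0.057, limma). Scd1, the enzyme that desaturates stored fatty acids, averaged 13584 ± 3811 against 47181 ± 9678 (1.82 ± 0.52), and without chow replicate 3 it missed the threshold (1.56, adjusted p = 0.050, limma). Of 15 genes of fatty acid synthesis 5 rose and 2 fell, with a median of 1.12 that was -0.25 with the brown fat term. The desaturase Fads2 fell from 49.7 ± 8.36 to 20.1 ± 4.22 (-1.27 ± 0.30).

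Skeletal muscle genes had the highest median of the 36 lists. Of 20 measured genes 18 rose, with a median of 5.08. Myh1, a fast myosin heavy chain, stood at 0.339, 1.20 and 0.494 on chow and at 289.4, 442.5 and 58.7 on WD (6.91 ± 1.58, adjusted p = 0.0023, limma). Acta1, skeletal actin, stood at 2.55, 6.10 and 1.404 against 477.1, 608.4 and 131.8 (6.43 ± 1.43). The chow libraries were near the floor of the assay for both genes, and WD replicate 3 was the lowest of the WD libraries in each. Myh2, another fast myosin, was at 4.57 in WD replicate 3 against 257.4 and 212.0 in the other 2, so the fibre types were not in one ratio across the group. Ryr1, the calcium release channel of muscle, rose by 5.28 ± 1.12, and Ckm, muscle creatine kinase, by 5.56 ± 1.32. With the brown fat term the list median was still 4.76, and with terms for both tissues it was -0.17. The terms are the list means themselves, so the list of each term loses its difference by construction.

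Heart muscle and B cell markers were highest in WD replicate 2. Myh6, the main myosin of the adult mouse heart, reached 776.1 in WD replicate 2, while the other 5 libraries lay between 1.97 and 50.6. The B cell gene Cd79a was at 91.3 in the same library and between 2.40 and 7.51 in the other 5. Ighm, the heavy chain of immunoglobulin M, had values of 40.7, 86.8 and 55.1 on chow and 154.9, 1858 and 419.7 on WD (3.07 ± 0.69, adjusted p = 0.0020, limma), and it was the 1 gene of 13 on the lymphocyte list that passed. Its lowest WD value was above its highest chow value. The median of that list was 0.85, and -0.35 without WD replicate 2. The share of these cells in the other results was not tested, but values without WD replicate 2 stand beside the immune lists below.

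Contractile smooth muscle genes fell almost as a block on WD. Of 18 measured members 17 fell and 1 rose, with a median of -2.02, where 17.5% of all genes fell. Acta2, the actin of smooth muscle, stood at 13308, 7646 and 13335 on chow and at 2094, 1328 and 3019 on WD. Every WD library was below every chow library, by -2.44 ± 0.49 (adjusted p = 0.0011, limma). Smooth muscle myosin (Myh11) went from 8807 ± 1612 to 1959 ± 1025 (-2.28 ± 0.49), and Itga8, an integrin subunit abundant in these cells, from 2460 ± 351 to 492.2 ± 273 (-2.48 ± 0.45). The potassium channel subunit Kcnmb1 fell by 2.31 ± 0.44 on the log2 scale and the actin cross-linker Flna by 2.14 ± 0.42. The member that rose was desmin (Des), an intermediate filament that skeletal and heart muscle also hold, at 94.6 ± 15.5 against 189.8 ± 48.9 (0.98 ± 0.33). It was not called in 3 of the 6 fits with a library left out, the lowest value being 0.79 without WD replicate 2 (adjusted p = 0.11, limma).

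These falls went along with the fat markers in other libraries. Of the 18 smooth muscle genes, 13 had an r of -0.7 or less with the brown adipocyte list there, where 816 of all 14157 genes did. The list median was -0.78 with the brown fat term and -0.45 with both terms. Acta2 was at -1.06 ± 0.44 with the brown fat term (adjusted p = 0.22, limma). Of the 18, 0 passed with either set of terms (limma), and 8 and 1 did at an unadjusted p under 0.05. The part of fat and muscle RNA in the smooth muscle difference was not tested.

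Genes of the extracellular matrix fell in 22 of 28 cases, with a median of -1.51. Col1a2, a chain of fibrillar collagen I, stood at 5176, 3320 and 4766 on chow and at 969.6, 822.9 and 1374 on WD (-2.07 ± 0.37, adjusted p = 0.00049, limma). Col3a1, the chain of collagen III, averaged 4346 ± 931 against 1293 ± 574 (-1.82 ± 0.38). Elastin (Eln) averaged 6081 ± 3792 against 1340 ± 484 (-2.01 ± 0.55), and without chow replicate 1, its highest library, the value was -1.54 (adjusted p = 0.050, limma). Periostin (Postn), a matricellular protein, stood at 1046, 1099 and 1402 on chow and at 218.7, 193.3 and 351.9 on WD (-2.25 ± 0.32, adjusted p = 0.00019, limma). Thrombospondin 1 (Thbs1) stood apart at 84.1 ± 49.2 against 107.5 ± 55.6, a difference that did not pass (0.48 ± 0.51). The list median came to -0.63 with the brown fat term and -0.42 with both. Fibroblast markers of the outer wall fell in 5 of 13 cases, among them Mfap5 of elastic microfibrils, and the surface protein gene Ly6a rose by 0.73, a call kept in 2 of the 6 fits with a library left out (0.55, adjusted p = 0.15 without chow replicate 1, limma). The list median was -0.64. Without WD replicate 2, 2 of them fell.

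Large falls were also found outside these lists. Sost, the Wnt antagonist sclerostin, stood at 1179, 521.7 and 804.5 on chow and at 54.3, 85.7 and 199.2 on WD (-3.00 ± 0.68, adjusted p = 0.0021, limma). The hedgehog-binding protein Hhip went from 54.5 ± 9.14 to 7.31 ± 4.36 (-2.84 ± 0.48). Npnt, an extracellular ligand of the integrin that holds the Itga8 chain, went from 1218 ± 110 to 202.1 ± 77.5 (-2.65 ± 0.45). With the brown fat term these 3 genes were at -1.22, -1.70 and -1.45 and none of them passed (adjusted p = 0.36, 0.11 and 0.11, limma). Optc, a small proteoglycan, and the secreted protein gene Angptl7 fell by 2.97 and 2.88 on the log2 scale, and were at -1.65 and -1.94 with the term (adjusted p = 0.12 and 0.10, limma). Col4a3, a chain of basement membrane collagen IV, stood at 48.6, 37.1 and 40.4 on chow and at 6.34, 5.74 and 7.04 on WD. Its log2 fold change was -2.54 ± 0.31 (adjusted p = 7.2e-05, limma), and the related chain Col4a5 fell by 2.46 ± 0.34 on the log2 scale.

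Macrophage genes rose. Of 18 measured markers 12 passed, all upward, with a median of 1.25. Cd68, a lysosomal membrane protein of macrophages, stood at 13.3, 15.3 and 10.5 on chow and at 28.5, 47.0 and 74.9 on WD (1.78 ± 0.45, adjusted p = 0.0040, limma). Every WD library lay above every chow library. Tyrobp, a signalling adaptor of myeloid receptors, averaged 9.32 ± 2.00 against 30.1 ± 11.52 (1.54 ± 0.36), and C1qa, a chain of complement C1q made by macrophages, 52.3 ± 6.50 against 149.5 ± 67.5 (1.42 ± 0.32). These genes had no common relation to brown fat in the other libraries (median r of the list 0.02), and the list median was 1.05 with the brown fat term and 1.12 with both terms. All 12 calls were lost in these fits: 0 of 18 passed with either set of terms (limma), and 9 did in each at an unadjusted p under 0.05. Without WD replicate 3, the library with the highest macrophage values, 7 rose and 1 fell.

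Genes of lipid-loaded macrophages rose as well. Spp1, which encodes osteopontin, stood at 1.64, 3.22 and 2.24 on chow and at 33.4, 269.6 and 657.7 on WD. The 3 WD libraries differed among themselves by far more than the chow libraries did, and the log2 fold change was 5.79 ± 1.24 (adjusted p = 0.0015, limma). Of the 18 list members 12 rose and 1, the tetraspanin Cd9, fell, with a median of 1.59. Gpnmb, a glycoprotein of lipid-laden macrophages, stood at 30.3, 30.8 and 31.7 against 52.0, 241.4 and 329.5 (2.34 ± 0.77). Mmp12, the macrophage elastase, stood at 2.34, 1.77 and 3.97 against 4.03, 27.4 and 51.9 (2.45 ± 0.81). Trem2, a lipid-sensing receptor, averaged 2.28 ± 0.312 against 14.6 ± 12.5 (1.88 ± 0.60). WD replicate 1 was the lowest of its group in all 4 genes and lay just above chow in Mmp12.

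Those calls depended on single libraries. Mmp12 lost its call in 4 of 6 fits with a library left out (1.74, adjusted p = 0.12 without WD replicate 3), Gpnmb in 3 (1.83, adjusted p = 0.096 without WD replicate 3) and Trem2 in 2 (1.25, adjusted p = 0.12 without WD replicate 3), while Spp1 kept it in all 6 (limma). Lgals3, which encodes galectin-3, rose by 1.85 ± 0.49, and the integrin Itgax (CD11c) by 2.00 ± 0.56, which was 1.63 without WD replicate 2 (adjusted p = 0.053, limma). Cd5l, a macrophage-secreted scavenger receptor protein, had values of 0.701, 28.9 and 8.20 on chow and 3.57, 41.3 and 34.8 on WD, groups that overlap (1.30 ± 1.05, adjusted p = 0.35, limma). Plin2, the droplet coat protein of lipid-loaded cells, averaged 247.3 ± 28.1 against 1031 ± 101 (2.06 ± 0.36), and Cd36, a fatty acid and lipoprotein receptor, 604.4 ± 202 against 1953 ± 369 (1.72 ± 0.41). Both of these follow brown fat in the other libraries, at an r of 0.76 and 0.87. Over the list, without WD replicate 2, 7 members rose and 1 fell. The list median was 1.02 with the brown fat term and 0.96 with both, where 0 of 18 passed (limma) and 10 and 8 did at an unadjusted p under 0.05.

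Targets of the sterol-sensing receptors LXR rose in 8 of 10 cases (median 1.05). Abcg1, which exports cholesterol to high-density lipoprotein, stood at 18.4, 29.9 and 11.7 on chow and at 57.9, 107.4 and 114.6 on WD (2.20 ± 0.34, adjusted p = 0.00026, limma). It had an r of -0.01 with brown fat and passed with the brown fat term as well (2.18 ± 0.44, adjusted p = 0.047, limma). Abca1, which loads apoA-I with cholesterol, averaged 156.8 ± 75.9 against 341.1 ± 33.2 (1.22 ± 0.36), and without chow replicate 3 the value was 0.90 (adjusted p = 0.084, limma). Nr1h3, the gene of LXR alpha, went from 35.5 ± 11.01 to 96.4 ± 4.89 (1.46 ± 0.28), but it follows brown fat at an r of 0.88 and stood at 0.53 with the term (adjusted p = 0.19, limma). The list median was 0.55 with the brown fat term and 0.58 with both. Abcg1 was the 1 member of 10 that passed with the brown fat term, and 0 passed with both (limma). At an unadjusted p under 0.05, 6 and 4 did. Without chow replicate 3, 5 of the 10 rose.

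Of 42 lysosomal genes measured, 11 rose (26.2%, against 20.7% of all genes) and 9 fell (21.4%, against 17.5%), shares near those of all genes, and the median was 0.01. Ctsz, a cathepsin, went from 199.1 ± 25.0 to 533.5 ± 89.2 (1.41 ± 0.21, adjusted p = 0.00020, limma), and the macrophage-rich cathepsin Ctss from 26.9 ± 8.48 to 142.2 ± 81.3 (2.21 ± 0.55). Lipa, the acid lipase that frees cholesterol from lipoprotein esters, rose by 1.10 ± 0.27, and Ctsd by 0.99 ± 0.20. Ctsl, another cathepsin, averaged 377.9 ± 15.0 against 343.6 ± 71.8 and did not pass (-0.16 ± 0.24). With a library left out, 9 to 11 rose and 2 to 10 fell, the fewest falls being without WD replicate 2.

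Of 25 sphingolipid genes measured, a pathway that the title of the study names, 9 rose (36%, against 20.7% of all genes) and 5 fell (20%, against 17.5%), with a median of 0.20. S1pr1, the receptor for sphingosine-1-phosphate that endothelium carries, stood at 69.6, 61.1 and 63.9 on chow and at 192.1, 188.9 and 212.6 on WD (1.59 ± 0.29, adjusted p = 0.00062, limma). The ceramidase Acer2 went from 30.0 ± 0.497 to 125.1 ± 21.6 (2.01 ± 0.40), and Sgpl1, which breaks down sphingosine-1-phosphate, from 80.1 ± 24.5 to 231.6 ± 40.5 (1.55 ± 0.36). Ormdl3, a regulator of the first step of synthesis, rose by 1.04 ± 0.24 and follows brown fat at an r of 0.95. Sgms2, a sphingomyelin synthase, fell from 26.9 ± 2.48 to 13.9 ± 3.29 (-0.92 ± 0.23). Without chow replicate 3, 6 of the list rose and 3 fell. Of the 25 genes, 4 follow brown fat in the other libraries, Sgpl1 among them at an r of 0.78, and 5 go against it. The list median was 0.20 with the brown fat term and 0.12 with both. In those fits 0 of 25 passed (limma), and 5 and 4 did at an unadjusted p under 0.05. With the brown fat term S1pr1, Acer2 and Sgpl1 were at 0.89, 0.98 and 0.48 (adjusted p = 0.14, 0.22 and 0.45, limma).

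Of 32 genes for cytokines, chemokines and adhesion molecules 14 rose, with a median of 0.79. The median was 0.80 with the brown fat term and 0.78 with both, but 0 of 32 passed in those fits (limma), and 13 and 7 did at an unadjusted p under 0.05. Ccl6 and Ccl9, chemokines of myeloid cells, averaged 17.7 ± 6.63 and 14.7 ± 4.10 on chow and 78.8 ± 29.2 and 54.0 ± 23.4 on WD (2.09 ± 0.41 and 1.77 ± 0.35). Without WD replicate 2, 10 rose, and without chow replicate 1 or 3, 9. Class II antigen presentation genes rose in 5 of 10 cases, with a median of 1.11 that was 0.82 with the brown fat term and 0.34 with both. With those terms 0 of 10 passed (limma), and 4 and 0 did at an unadjusted p under 0.05. The chain gene H2-Eb1 stood at 70.9, 99.7 and 78.0 on chow and at 151.4, 435.1 and 211.4 on WD (1.54 ± 0.38), and the invariant chain Cd74 averaged 204.1 ± 24.4 against 651.5 ± 408 (1.495 ± 0.39). WD replicate 2, the library with the B cell transcripts, was the highest in both. Without it, 1 of the 10 rose, against 8 without WD replicate 3, and Cd74 was at 1.02 (adjusted p = 0.058, limma).

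Genes that interferons induce rose in 12 of 25 cases, with a median of 0.86. Oas2, an antiviral enzyme that senses double-stranded RNA, stood at 5.78, 11.1 and 10.1 on chow and at 51.6, 43.4 and 51.7 on WD (2.36 ± 0.47, adjusted p = 0.0010, limma). The 3 WD libraries were close to each other and all far above chow. Its relative Oas1a averaged 4.76 ± 0.985 against 16.9 ± 2.32 (1.64 ± 0.43), and Rsad2, the antiviral protein viperin, 12.8 ± 3.03 against 38.7 ± 12.995 (1.48 ± 0.37). Irf7, a transcription factor of the response, rose by 1.49 ± 0.45, which was 1.18 without WD replicate 2 (adjusted p = 0.079, limma). Over the list, 5 members rose without WD replicate 2 and also without chow replicate 3. The list median was 0.48 with the brown fat term and 0.17 with both. In those fits 0 of 25 passed (limma), and 4 and 0 did at an unadjusted p under 0.05.

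Promoters of the interferon list were searched for the core of the interferon-stimulated response element, which reads GAAA, any 2 bases and GAAA again, on both strands, overlapping matches included. RefSeq windows (GRCm38.p6), from 250 bases before to 50 after a start, were matched for 16 of the 25 members. Of their 18 windows 11 held the letters (61.1%), against 1131 of all 32851 windows (3.44%). Of the 11 members with a match 4 rose, against 12 of 25 on the whole list and 20.7% of all genes. The 250 bases before the start are shown for 2 of those 4, with the matched letters in capitals. They lie on the minus strand of chr12:26456453-26456702 for Rsad2 and chr5:120907526-120907775 for Oas1a. A match is a description of the letters and not a measured site.
Rsad2: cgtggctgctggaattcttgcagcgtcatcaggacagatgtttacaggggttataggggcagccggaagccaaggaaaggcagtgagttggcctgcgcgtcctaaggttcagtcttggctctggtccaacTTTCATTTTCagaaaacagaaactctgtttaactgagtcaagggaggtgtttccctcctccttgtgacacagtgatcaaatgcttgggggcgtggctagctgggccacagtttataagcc
Oas1a: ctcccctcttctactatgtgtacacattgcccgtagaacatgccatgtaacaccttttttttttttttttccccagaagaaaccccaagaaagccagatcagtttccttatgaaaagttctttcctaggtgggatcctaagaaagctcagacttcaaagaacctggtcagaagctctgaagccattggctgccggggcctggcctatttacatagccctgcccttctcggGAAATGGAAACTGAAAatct

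Mast cell genes rose in 5 of 6 cases (median 1.67). Most were low: where a mean value of at least 10 was required, 1 gene of the list was tested and 0 passed. With either set of tissue terms 0 of 6 passed (limma), and 4 and 1 did at an unadjusted p under 0.05. Mcpt4, a chymase stored in mast cell granules, stood at 0.985, 2.59 and 2.98 on chow and at 12.3, 11.53 and 6.38 on WD (1.81 ± 0.35, adjusted p = 0.00090, limma). Its relative Cma1 averaged 1.74 ± 1.07 against 9.77 ± 2.54 (2.04 ± 0.47). Endothelial markers rose in 9 of 15 cases, and the transcription factor Erg fell (-0.57). Robo4, a guidance receptor of endothelium, stood at 25.9, 24.5 and 21.2 on chow and at 88.8, 75.8 and 75.9 on WD (1.71 ± 0.32), with an r of 0.77 with brown fat. Kdr, the main receptor for vascular endothelial growth factor, went from 93.1 ± 18.7 to 260.8 ± 57.8 (1.48 ± 0.42), but was at 0.01 with the brown fat term. Pecam1, which every endothelial cell carries, averaged 631.5 ± 105 against 569.6 ± 98.6 and did not pass (-0.15 ± 0.23). Across the 6 fits with a library left out, 4 to 8 of the 15 rose, and Erg kept its call in 2 of them (-0.41, adjusted p = 0.18 without WD replicate 2, limma).

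Most further genes came from lists that went both ways or had few calls, and the complement list is given with them. Among matrix proteases and their inhibitors 6 of 19 rose and 7 fell (3 rose without WD replicate 3, and 3 fell without WD replicate 2), with Adam8, a protease of myeloid cells, at 3.62 ± 1.13 against 21.0 ± 13.2 (2.08 ± 0.40). Lcn2, an iron-carrier binding protein, went from 1.41 ± 1.05 to 20.6 ± 20.1 (2.85 ± 0.64), and the cartilage proteoglycan Acan from 19.7 ± 4.81 to 6.21 ± 6.03 (-1.91 ± 0.51), which was -1.18 without WD replicate 1 (adjusted p = 0.066, limma). Of 18 complement genes 10 rose (55.6%, against 20.7% of all genes) and 1 fell, and 6 rose without WD replicate 3. With either set of tissue terms 0 of these 18 passed (limma), and 6 and 4 did at an unadjusted p under 0.05. Socs3, a brake on cytokine signalling, rose by 1.29 ± 0.30, and the immediate early factor Egr1 fell by 1.86 ± 0.55 on the log2 scale but by 1.34 without chow replicate 1 (adjusted p = 0.080, limma). The clock repressor Nr1d1 stood at 342.1, 339.9 and 295.9 against 131.5, 233.3 and 127.3 (-1.04 ± 0.33), and lost the call without WD replicate 1 (-0.91, adjusted p = 0.065) or 3 (-0.89, adjusted p = 0.065, limma). Mfsd2a, a carrier of lysophospholipids, rose from 0.234, 1.70 and 0.248 to 36.3, 56.4 and 44.1 (4.83 ± 0.92).

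With the brown fat term in the fit, 27 genes passed (15 higher, 0.106%, and 12 lower, 0.0848%), 26 of them also called without it. The term raised the SE of a gene by a median factor of 1.20. At an unadjusted p under 0.05, 2370 genes passed with the term and 6703 without it. With terms for brown fat and skeletal muscle, 1 gene passed at an adjusted p under 0.05 (0.00706%, higher, with 1326 genes at an unadjusted p under 0.05), and the SE was larger by a median factor of 1.42. In the 6 libraries compared, the brown fat list does not overlap between the diets, so fat and diet cannot be told apart from them alone.

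**Figure D3:**
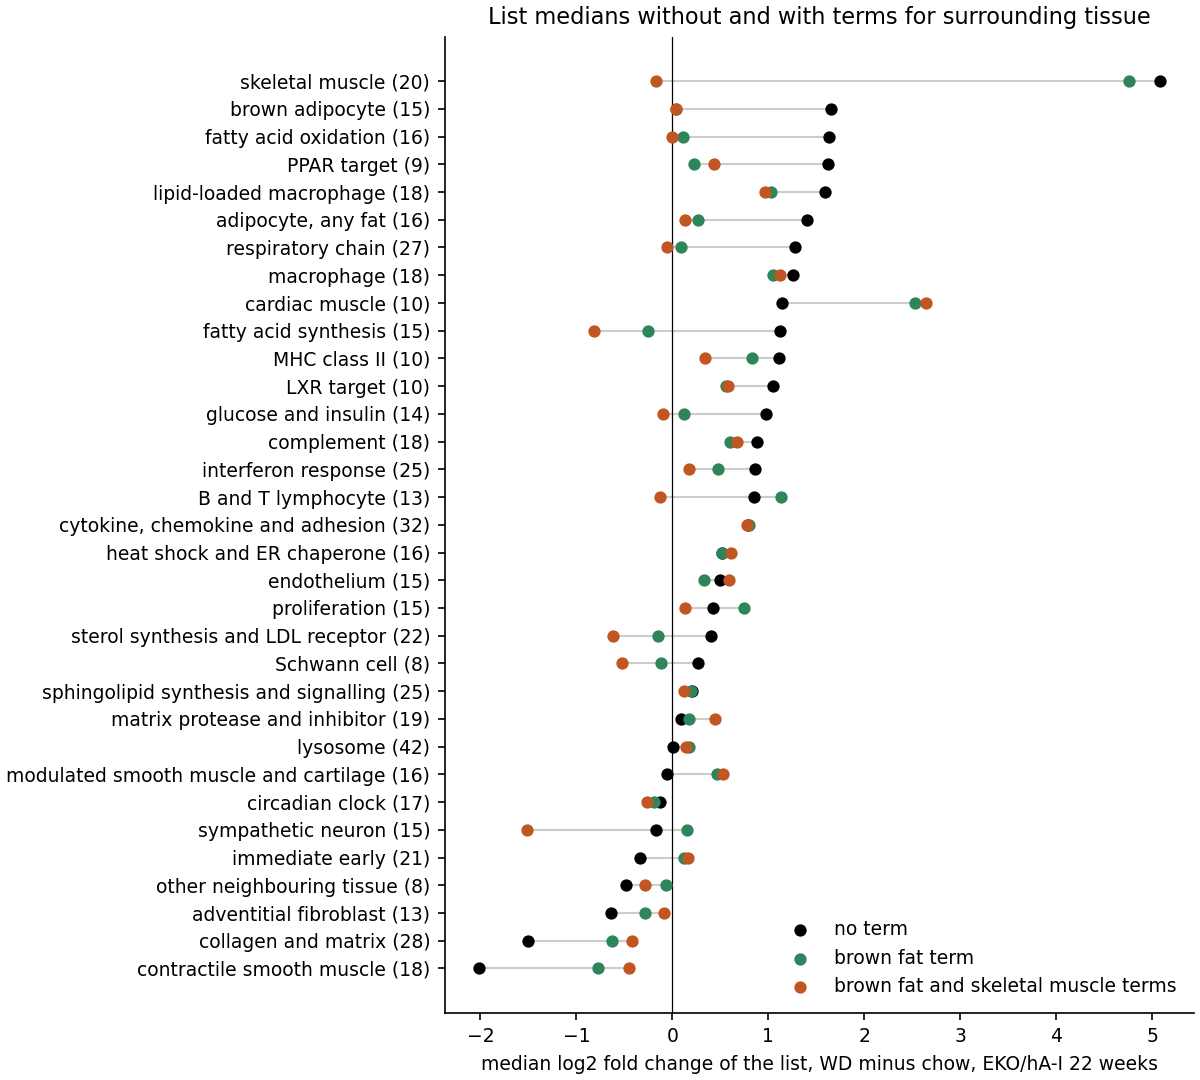
Median log2 fold change of lists, WD minus chow in EKO/hA-I at 22 weeks, without a term, with the brown fat term and with both. The lists of red cells, mast cells and Y-linked genes are not shown. The number of measured genes stands in brackets. Respiratory chain and brown fat lists come to about 0 with the first term, skeletal muscle with the second, and macrophage and cytokine medians move little, although their members no longer pass.

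The genes that kept the call with the brown fat term were chosen for description after their values had been seen. Tnfrsf9 (CD137), a costimulatory receptor of activated immune cells, stood at 0.0584, 0.126 and 0.186 on chow and at 4.07, 3.68 and 6.31 on WD. The chow values are those of very few reads, so the size of the fold change (2.31 ± 0.25) depends on the pseudocount. With the term it was 2.35 ± 0.33 (adjusted p = 0.0019, limma). The myeloid kinase Fgr averaged 3.00 ± 0.137 on chow and 12.8 ± 1.94 on WD. Its difference was 1.78 ± 0.28 without the term and 1.76 with it (adjusted p = 0.047, limma). Nos2, the inducible nitric oxide synthase, went from 3.50 ± 1.28 to 14.7 ± 2.42 (1.83 ± 0.25, 1.36 with the term).

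Other genes kept the call too. Ucp2, a mitochondrial carrier common in immune cells, went from 68.1 ± 6.74 to 192.8 ± 42.0 (1.47 ± 0.23, 1.42 with the term). Jak3, a kinase of cytokine receptors, went from 34.7 ± 7.54 to 137.3 ± 6.19 (1.97 ± 0.28, 1.08 with the term), although it follows brown fat at an r of 0.82. Dll4, a Notch ligand of arterial endothelium, stood at 19.98, 11.2 and 10.4 on chow and at 64.5, 42.3 and 43.6 on WD (1.81 ± 0.25, 1.33 with the term). Ptpn1, a phosphatase of insulin and cytokine receptors, rose by less, from 55.8 ± 2.56 to 84.8 ± 13.3 (0.58 ± 0.14, 0.82 with the term). Among the falls, Postn was at -1.24 with the term, Col4a3 at -1.89, Col4a5 at -1.51 and the cadherin Cdh6, which averaged 32.4 ± 1.02 on chow and 5.10 ± 1.47 on WD, at -1.33. Mpp6, a scaffold protein of the membrane, stood at 6.13, 8.90 and 7.57 against 23.2, 25.5 and 41.2 (1.83 ± 0.19, adjusted p = 6.7e-06, limma). It was the gene that passed with both terms (1.95, adjusted p = 0.0030, limma).

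**Figure D4:**
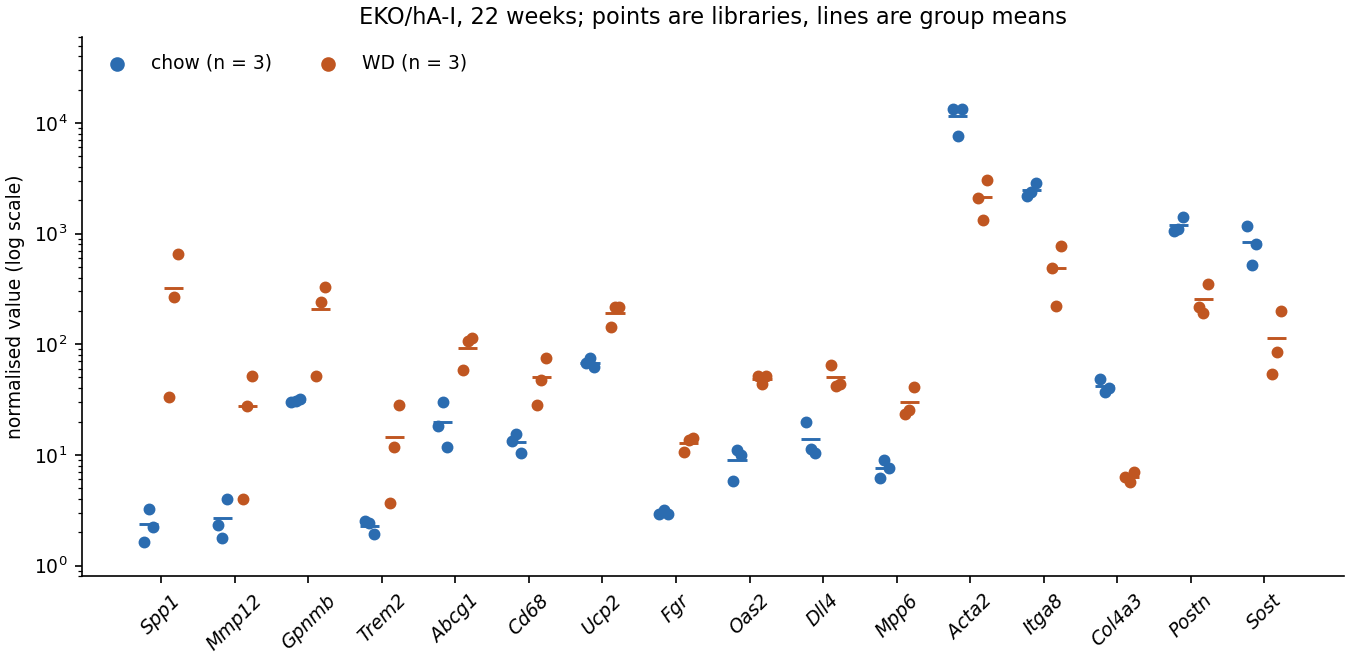
Normalised values (log axis) of 16 genes in the 3 chow and 3 WD libraries of EKO/hA-I at 22 weeks, with group means as lines. The groups are apart in each gene shown, closely so in Mmp12, and the WD libraries of Spp1, Mmp12, Gpnmb and Trem2 are spread far wider than those of Fgr, Oas2 or Col4a3.

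The same diet difference at 22 weeks was taken in the other genotypes from separate libraries, 3 on each diet. In EKO mice 1964 genes rose (13.9%) and 680 fell (4.8%), and in WT 131 rose (0.925%) and 62 fell (0.438%). The difference between the diet effects of EKO/hA-I and EKO passed for 4840 genes (34.2%), 2210 in the upward direction (15.6%) and 2630 in the downward (18.6%). Against WT it passed for 3798 (26.8%), 1963 upward (13.9%) and 1835 downward (13%). Without WT chow replicate 2 the count against WT was 2243 and without WT WD replicate 2 it was 2490. With the brown fat term 157 and 128 passed.

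Fat and muscle genes differed from EKO in most cases. Brown adipocyte genes had a median of 1.65 in EKO/hA-I, -0.71 in EKO and -0.13 in WT, and the difference from EKO passed upward for 10 of 15. Ucp1 averaged 3391 ± 1079 on chow and 2034 ± 1343 on WD in EKO, so its diet difference was -0.998 ± 0.54 there against 2.06 in EKO/hA-I (difference 3.05 ± 0.76, adjusted p = 0.0036, limma). Respiratory chain genes differed upward from EKO in 27 of 27 cases. The skeletal muscle list had medians of 5.08, -0.68 and 1.70 in EKO/hA-I, EKO and WT, and 16 of 20 genes differed upward from EKO but 2 of 20 from WT (10%, against 13.9% of all genes).

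Matrix genes had opposite signs in the genotypes without mouse apoE. The list median was -1.51 in EKO/hA-I, 1.14 in EKO and 0.28 in WT, and for 27 of 28 genes the difference from EKO passed downward. The brown adipocyte medians also had opposite signs, 1.65 in EKO/hA-I and -0.71 in EKO. Matrix genes had a median r of -0.63 with that list in the other libraries. With both tissue terms the difference from EKO passed for 0 of all 14157 genes (limma). The part of fat and muscle RNA in the matrix difference was not tested. Col3a1 went from a mean of 1308 to 4901 on WD in EKO (1.91 ± 0.38) and from 4346 to 1293 in EKO/hA-I (difference -3.73 ± 0.54, adjusted p = 7.1e-05, limma). The chow means of the 2 genotypes, 4346 and 1308, were not tested against each other. Smooth muscle genes had medians of -2.02, -0.50 and 0.11, with 6 of 18 lower and 1 higher than in EKO and 14 of 18 lower than in WT by the test of the difference. Acta2 differed from EKO by -1.93 ± 0.70 (adjusted p = 0.034, limma) and from WT by -2.57 (adjusted p = 0.010, limma).

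Lysosomal genes moved further in EKO. Medians of the lipid-loaded macrophage list were 1.59 in EKO/hA-I, 2.54 in EKO and 0.41 in WT, and those of the macrophage list 1.25, 1.98 and 0.79. The difference from EKO passed downward for 5 and upward for 2 of the 18 lipid-loaded genes and for 1 macrophage gene in each direction. Over all genes it passed downward for 18.6% and upward for 15.6%. Spp1 rose by 4.61 in EKO, where WD libraries averaged 9604 and chow libraries 401.1, and the difference of 1.18 ± 1.75 between the genotypes did not pass (adjusted p = 0.63, limma). Against WT the difference was 5.08 (adjusted p = 0.033, limma). For lysosomal genes the medians were 0.01, 1.03 and 0.18, and 29 of 42 differed downward from EKO. Ctsl rose by 2.65 ± 0.24 in EKO and had -0.16 in EKO/hA-I (difference -2.81 ± 0.34, adjusted p = 1.6e-05, limma).

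Abcg1 and Tnfrsf9 rose in EKO/hA-I and in EKO. For Abcg1 the values were 2.20 ± 0.34 and 2.39 ± 0.34, a difference of -0.19 ± 0.48 (adjusted p = 0.79, limma), which does not show that the responses were alike. Tnfrsf9 had 2.31 and 2.20. Mpp6 had 1.83 in EKO/hA-I, 0.63 in EKO and -0.28 in WT (difference from EKO 1.19 ± 0.28, adjusted p = 0.0022, limma). Mast cell genes had medians of 1.67, -0.50 and 1.65, and 4 of 6 genes differed from EKO upward. For interferon genes the medians were 0.86, 0.36 and 0.32. The difference from WT passed upward for 2 of 25, against 13.9% of all genes, and the difference from EKO for 0 of 25.

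**Figure D5:**
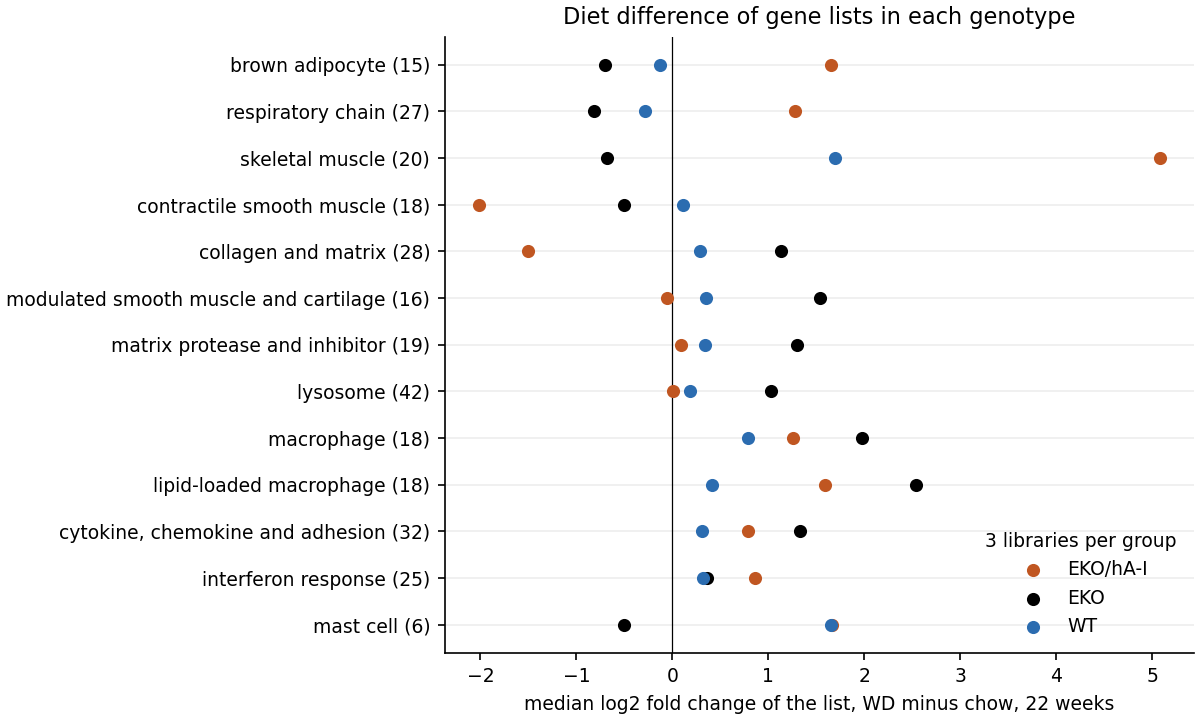
Median log2 fold change of 13 lists, WD minus chow at 22 weeks, in EKO/hA-I, EKO and WT, 3 libraries per group; numbers in brackets are measured genes. Brown fat, respiratory chain and skeletal muscle medians lie furthest right in EKO/hA-I, matrix and smooth muscle medians furthest left, and lysosome and lipid-loaded macrophage medians lie furthest right in EKO.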

How the data were processed

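RNA-seq libraries of mouse aorta were used, and 3 EKO/hA-I libraries on WD were compared with 3 on chow at 22 weeks. The authors deposited 1 table of normalised read signal per gene symbol and library, with column totals of 907492 to 1137737; the kind of size factor and the removal of low genes are not given in the sources used here. The submitters' processing notes name Bowtie 0.12.2, Bowtie2, RSEM and the builds mm8 and mm9, with no role. Of the values at or below 1.5, 71.6 to 81.6% per library were whole multiples of the smallest step (tolerance 0.02), too few to recover reads, and count-based tests were not used. Reads per library (6860000 to 25330000) were inferred from the smallest step between values.

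The test was limma 3.58.1 under R 4.3.3 (moderated with trend and robust settings, two-sided) on log2(value + 1) in 1 fit of 35 libraries and 12 groups, over the 14157 of 14174 genes that reached 1 in 3 or more libraries, with Benjamini-Hochberg adjustment over all genes. The test was tried on simulated data. Fold changes on this scale understate those of low genes. The genes and 36 lists (600 of 619 entries measured, 7 genes in 2 lists) were chosen with earlier results of these data known. Named genes are the largest rises and falls of each class (mean log2 value of at least 3, groups apart, up to 12 each) and the first and up to 4 members of smallest p of a list; Myh11, Des, Col3a1, Eln, Col4a5, Thbs1, Trem2, Lgals3, Itgax, Cd5l, Irf7, Dll4, Ctsl, Ctss, Lipa, Sgms2, Fgr, Tnfrsf9, Nos2, Mpp6, Jak3, Ptpn1, Cdh6, Scd1, Cpt1a, Erg, Cd9, Ly6a, Atp5j and Atp5b were named after their values had been seen. Reads shared by near-identical genes cannot be told apart. WT WD 22 weeks replicate 3 carries an EKO genotype tag and a WT title; its group follows the title, and its Apoe value was 540.4. Some results are not reported here.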

Additional observations from a re-analysis of the deposited data

Results flagged for a closer look

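The diet effect at 22 weeks differed between genotypes by the interaction test (limma) in 4840 genes for EKO/hA-I minus EKO and in 3798 genes for EKO/hA-I minus WT. Among genes named in the text, Col3a1, the chain of collagen III, differed by -3.73 from EKO and -1.93 from WT. Acta2, smooth muscle actin, differed by -1.93 from EKO and -2.57 from WT, and Ctsl, a cathepsin, by -2.81 from EKO. Ucp1, the brown fat uncoupling protein, differed by 3.05 from EKO and 2.60 from WT, in parallel with the brown adipocyte list. Abcg1 differed from WT by 1.42, Spp1 from WT by 5.08, and Mpp6 by 1.19 from EKO and 2.11 from WT. Groups of 3 libraries were not searched for single outlying samples.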

How the results depend on the processing

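For WD against chow in EKO/hA-I, the number of genes passing was 27 with the brown fat term and 1 with both tissue terms; for the difference from EKO these were 157 and 0 (1982 at an unadjusted p under 0.05, limma), and for the difference from WT 128 and 2. Leaving out 1 library at a time gave 3608 to 5007, 3492 to 5029 and 2243 to 4388 genes. The replicate numbers of the titles do not pair the animals by the rule used (residual correlations 0.0558, 0.245 and 0.153, and not every library correlated best with its own number); with the replicate block 5310, 4711 and 3869 genes passed. The other settings (compared groups alone, pseudocounts of 0.1 and 5, no filter, a mean of at least 10, median-ratio rescaling, and a term that marks the libraries lacking Y-linked transcripts) kept each count within 1.5 times, and rescaling gave 49.5% rises among calls against 54.1%. Of 97 genes named with a test, 92 passed. This share follows largely from the choice of genes, since most were named for passing or for a small p. The sign turned with the brown fat term in Pecam1 (0.19) and Ctsl (0.25), with both terms in Ucp1 (-0.25), Adipoq (-0.029), Myh2 (-0.24), Myh4 (-0.86), Pecam1 (0.34), Erg (0.15) and Ctsl (0.41), and without chow replicate 2 in Thbs1, which ran from -0.18 to 0.85 (without chow replicate 3) over the 6 fits. The cause of these turns was not tested. Reads per library limit genes near the level of 1 read, such as Tnfrsf9 on chow, and 3 libraries per diet limit every value.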
